A study of Mus musculus with 12 samples.

Results

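The genes described here are 42 ribosome biogenesis factors, the proteins that transcribe, modify, cut and fold ribosomal RNA (rRNA) and assemble it with ribosomal proteins. They were taken by gene symbol from a deposited expression table of 55487 features. All 42 symbols were found, and all 42 were among the 12364 genes that passed the filter on low values. The data are bulk RNA-seq of mouse natural killer (NK) cells, innate lymphocytes that kill target cells and secrete interferon gamma.

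All 12 samples carried the reporter strain B6.129S4-Ifngtm3.1Lky/J with the genotype mut/mut, and all titles carry the tag HD IL-15, so no sample lacked the reporter allele or the cytokine. In this strain a yellow fluorescent protein (YFP) is made along with interferon gamma, so that YFP marks cells in which that gene has been switched on. Each of 3 groups had 4 samples, labelled f2, m2, m3 and m4. The unstimulated group received no receptor stimulus. The other samples were stimulated for 6 h with an antibody to NK1.1, an activating receptor of NK cells, and are labelled YFP- (reporter off) or YFP+ (reporter on). The labels give no time for the unstimulated samples and do not split them by reporter state. A difference in time or handling between unstimulated and stimulated samples therefore cannot be told apart from the stimulus. The labels do not say whether samples that share a replicate label came from the same mouse, so p-values measure the spread between these samples, and the labels give no animal age. In bulk samples a higher level in every cell and a larger share of highly expressing cells cannot be told apart.

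Ribosome production starts in the nucleolus, where RNA polymerase I copies the rRNA genes into a long precursor. Small nucleolar ribonucleoproteins (snoRNPs) guide chemical changes on that precursor: box C/D particles direct methylation and box H/ACA particles direct pseudouridylation. The small subunit processome then matures the 18S rRNA, a separate set of factors matures the 28S and 5.8S rRNAs of the large subunit, and general nucleolar proteins act as chaperones and scaffolds. Lymphocytes are known to enlarge their nucleoli and raise ribosome production when they are activated. MYC, a transcription factor induced in activated lymphocytes, binds the E-box sequence CACGTG and is known for activating many of these genes.

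The libraries held 32143536 to 54242394 reads assigned to genes, and the lowest count of any member in any sample was 123 reads, for Rrp12. Features of rRNA type took 12.0% to 15.2% of the reads in the unstimulated group, 7.15% to 17.8% in YFP- and 5.13% to 15.5% in YFP+, and replicate m3 held the highest share in both stimulated groups. NK markers were abundant, with Ncr1 at 243.8 to 248.8 CPM (reads of a gene scaled to the library total) in unstimulated samples and 104.9 to 137.6 CPM in YFP+. Klrb1c, the gene of NK1.1 itself, went from 290 to 327 CPM without stimulation to 57.6 to 86.6 CPM for YFP- and 3.70 to 8.97 CPM for YFP+, and Eomes and Klre1 were also lower in every stimulated sample than in any unstimulated one. The summed level of the 9 NK markers ranged over 8860 to 11939 CPM in the unstimulated group, over 16513 to 20659 CPM among YFP- samples and over 24428 to 36676 CPM among YFP+ samples, and it was carried mainly by Gzmb, the cytotoxic protease granzyme B. The T-cell list summed to 46.2 to 106, 47.2 to 76.3 and 31.6 to 70.5 CPM, mainly from Cd3g, Cd3d and Cd6, while the defining genes Cd8b1 and Cd4 stayed at or below 0.184 CPM and Cd3e at or below 1.49 CPM. B-cell, myeloid and erythroid lists summed to at most 4.19, 3.18 and 0.326 CPM. The part of these marker levels in the results below was not tested.

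Of the 42 members, 37 had a promoter window in the RefSeq table (GRCm38.p6; 250 bases before to 50 after the start site), and the 5 without one were Fbl, Rrp12, Bop1, Rrs1 and Npm1. The E-box CACGTG reads the same on both strands, so a search of the forward letters covers both, and it was the only motif searched. It was present in 8 of the members' 41 windows, which is 19.5%, against 7.15% of all 32851 windows. Among windows of the genes tested here the share was higher, at 10.2%, although only 8704 of the 12364 genes tested had a window. Small subunit factors held 5 of the 8 (Utp4, Ltv1, Utp20, Tsr1 and Wdr43), large subunit factors 2 (Nop2 and Pes1) and the general nucleolar factors 1 (Mybbp1a). The matches are printed because 4 of these genes are among the 5 members with the widest spread between samples, as described further on. Any link between the motif and the spread was not tested. Capitals mark the motif, each stretch is 30 bases on the gene's own strand, 5′ to 3′, and the position counts the motif's first base from the start site. A match describes the letters only and does not show that a factor bound there.
Nop2 (chr6:125131811-125131840, + strand, position -60): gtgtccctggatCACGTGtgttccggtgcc
Utp4 (chr8:106893643-106893672, + strand, position 16): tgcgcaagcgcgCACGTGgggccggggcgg
Ltv1 (chr10:13193092-13193121, - strand, position 29): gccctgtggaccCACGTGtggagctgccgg
Pes1 (chr11:3963965-3963994, + strand, position 3): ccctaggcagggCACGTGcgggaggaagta
Utp20 (chr10:88826765-88826794, - strand, position 38): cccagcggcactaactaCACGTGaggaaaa
Mybbp1a (chr11:72441347-72441376, + strand, position 41): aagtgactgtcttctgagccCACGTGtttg
Tsr1 (chr11:74898092-74898121, + strand, position 25): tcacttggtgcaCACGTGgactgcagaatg
Wdr43 (chr17:71616220-71616249, + strand, position 18): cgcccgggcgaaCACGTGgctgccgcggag

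Among the 37 members with a window, only Nop2 held the motif before its start site. Nop2 also had the highest estimated rise of all members in both stimulated groups. Its SE was 0.48 on the log2 scale, and its YFP+ rise of 2.87 lay within that error of Rrp12 and Ltv1, both at 2.67. Any link between the motif and the rise was not tested. The 250 bases before its start site (chr6:125131633-125131882, + strand, RefSeq GRCm38.p6) show the context of that match.
Nop2 upstream: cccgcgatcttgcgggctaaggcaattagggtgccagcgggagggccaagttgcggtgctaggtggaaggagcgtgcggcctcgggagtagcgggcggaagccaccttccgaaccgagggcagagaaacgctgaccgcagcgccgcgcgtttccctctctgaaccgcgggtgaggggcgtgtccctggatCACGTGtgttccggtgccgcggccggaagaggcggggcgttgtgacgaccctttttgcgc

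Ribosome biogenesis factors rose in nearly every case after NK1.1 stimulation, whether or not the cells had switched on the interferon gamma reporter. In YFP- over unstimulated, 40 of 42 members were higher and none was lower at a Benjamini-Hochberg adjusted p under 0.05 in limma. Over all genes tested in that comparison, 30.2% were called higher and 20.9% lower. In YFP+ over unstimulated, all 42 members were called higher, against 27.5% of all genes called higher and 33.3% called lower. The median log2 difference of the members was 1.72 in YFP- and 1.93 in YFP+, where the median over all genes tested was 0.14 and -0.03. Both comparisons use the same 4 unstimulated samples, so they are not independent of each other. The members were also chosen with earlier results of these data known. Testing all features without the filter on low values ended the calls of Pes1, Noc2l and Npm1 in YFP- and of Utp4, Pes1, Bop1 and Npm3 in YFP+, with limma adjusted p-values of 0.053 to 0.12.

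The groups were also separated sample by sample. All 4 YFP- samples lay above all 4 unstimulated samples for 40 members, and all 4 YFP+ samples did so for 39. The share of all genes tested that separated in this way was not counted, so these counts only describe the members. The members whose YFP- and unstimulated samples overlapped were Nop10 and Npm3, and those whose YFP+ and unstimulated samples overlapped were Utp4, Pes1 and Bop1. Together the 42 transcripts took 0.304% ± 0.041 of the reads without stimulation, 0.707% ± 0.098 for YFP- and 0.855% ± 0.123 for YFP+ (mean ± SD, n = 4). Without Npm1, the most abundant member, those shares were 0.188% ± 0.032, 0.536% ± 0.076 and 0.618% ± 0.102.

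**Figure D1:**
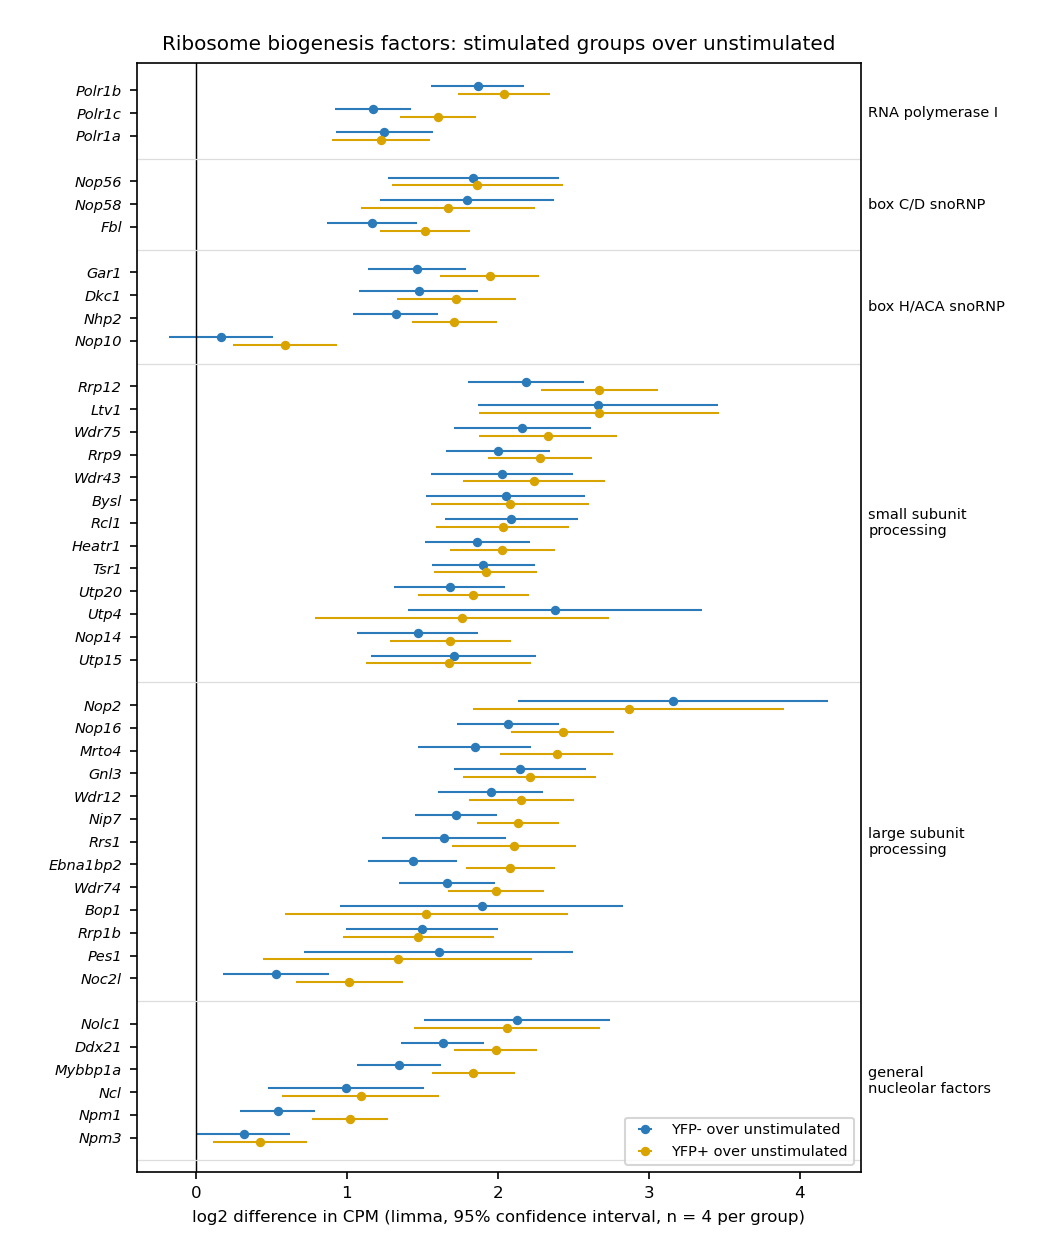
Log2 difference in CPM of YFP- (blue) and YFP+ (yellow) over unstimulated samples for the 42 members, grouped by role, with points for the limma estimate and bars for its 95% confidence interval (n = 4 per group). Nearly all intervals lie to the right of 0; the members nearest to 0 are Nop10, Npm3, Noc2l and Npm1, and Nop2 lies farthest to the right with wide intervals.

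All 3 RNA polymerase I subunits rose in both stimulated groups. Polr1a, the largest subunit, stood at 7.92, 9.18, 11.4 and 8.60 CPM in unstimulated samples f2, m2, m3 and m4. It stood at 24.5, 21.8, 17.7 and 24.3 CPM in the YFP- samples, in the same order, and at 19.7, 23.1, 22.3 and 21.2 CPM in the YFP+ samples. Every stimulated sample was above every unstimulated sample, and the stimulated groups overlapped each other. The log2 difference was 1.25 ± 0.15 (SE; adjusted p = 1.8e-05) for YFP- and 1.23 ± 0.15 (adjusted p = 9.6e-06) for YFP+.

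Polr1b, the second-largest subunit and part of the catalytic centre, had the largest rise of the 3, to a log2 difference of 1.87 ± 0.14 in YFP- and 2.04 ± 0.14 in YFP+. Its levels were 5.27, 6.05, 5.50 and 4.41 CPM unstimulated, 18.2, 20.8, 16.6 and 21.9 CPM in YFP-, and 20.0, 20.7, 23.1 and 23.4 CPM in YFP+. Polr1c, a subunit shared with RNA polymerase III, was measured at 78.5, 79.9, 84.7 and 70.2 CPM unstimulated, 184, 164, 162 and 196 CPM in YFP- and 272, 248, 205 and 231 CPM in YFP+. For Polr1c the 3 groups did not overlap at all, and its log2 difference from unstimulated was 1.17 ± 0.12 in YFP- and 1.60 ± 0.12 in YFP+.

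The box C/D snoRNP proteins rose in both stimulated groups, 3 of 3 in each comparison. Fbl encodes fibrillarin, the methyltransferase of the particle, and its levels were 96.8, 89.9, 97.0 and 68.7 CPM unstimulated, 204, 191, 170 and 222 CPM in YFP- and 230, 269, 222 and 284 CPM in YFP+. These 3 groups did not overlap, and the log2 difference was 1.17 ± 0.14 in YFP- and 1.52 ± 0.14 in YFP+. Some reads of Fbl may be hard to place, because 3 annotated transcripts are at least 90% identical to it over at least 50% of its length. Their genes together had 2.52% of the level of Fbl, and the share of its reads affected was not measured.

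Nop56, a core scaffold protein of the box C/D particle, stood at 157, 158, 173 and 92.1 CPM unstimulated, at 552, 483, 385 and 635 CPM in YFP- and at 701, 585, 297 and 576 CPM in YFP+. The unstimulated m4 sample was the lowest of its group and the YFP+ m3 sample was far below the other YFP+ samples, yet it stayed above all unstimulated ones. Nop56 rose by a log2 difference of 1.84 ± 0.26 in YFP- and 1.87 ± 0.26 in YFP+. Its partner Nop58 rose by 1.80 ± 0.27 and 1.67 ± 0.27.

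In the box H/ACA snoRNP, whose proteins also bind telomerase RNA, 3 of 4 proteins rose in YFP- and 4 of 4 in YFP+. Dkc1 encodes dyskerin, the pseudouridine synthase, and was at 115, 111, 135 and 82.9 CPM unstimulated, at 329, 314, 242 and 343 CPM in YFP- and at 467, 374, 271 and 363 CPM in YFP+. All stimulated samples were above all unstimulated ones, and the log2 difference was 1.48 ± 0.18 in YFP- and 1.73 ± 0.18 in YFP+. Nhp2, an RNA-binding core protein, was at 133, 152, 161 and 125 CPM unstimulated, 348, 315, 334 and 438 CPM in YFP- and 423, 434, 481 and 532 CPM in YFP+, a log2 difference of 1.32 ± 0.13 and 1.71 ± 0.13.

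Gar1, which helps substrate turnover by the particle, rose by 1.47 ± 0.15 in YFP- and 1.95 ± 0.15 in YFP+. Its levels were 21.6, 24.9, 24.6 and 16.8 CPM unstimulated, 68.4, 62.4, 52.5 and 57.6 CPM in YFP- and 72.9, 89.3, 78.3 and 96.0 CPM in YFP+, with no overlap between any of the groups. Nop10, the smallest protein of the particle, stood apart from its partners. It was at 109, 146, 128 and 109 CPM unstimulated, 146, 113, 130 and 165 CPM in YFP- and 152, 165, 213 and 216 CPM in YFP+. The YFP- samples overlapped the unstimulated ones, with a log2 difference of 0.17 ± 0.16 and an adjusted p of 0.40, whereas all YFP+ samples were higher, with a difference of 0.59 ± 0.16 and an adjusted p of 0.0053. This YFP+ call of Nop10 was lost after quantile normalization (0.40, adjusted p = 0.071), and the YFP- difference then turned to -0.07. The YFP+ call was also lost when features of rRNA type and 3 more were taken out of the library totals (0.40, adjusted p = 0.065).

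Small subunit factors rose together, 13 of 13 in both comparisons, with a median log2 difference of 2.03 in YFP- and 2.03 in YFP+. Rrp9, a U3 snoRNP protein needed for early cuts of the precursor, was at 33.1, 33.3, 40.0 and 26.1 CPM unstimulated, 140, 129, 106 and 155 CPM in YFP- and 159, 180, 129 and 174 CPM in YFP+. Its stimulated samples were all above its unstimulated ones, by a log2 difference of 2.0 ± 0.16 and 2.28 ± 0.16. Wdr43, a subunit of the t-UTP complex that joins rDNA transcription to processing, was at 26.6, 28.5, 29.2 and 17.8 CPM unstimulated, 99.7, 113, 73.7 and 133 CPM in YFP- and 151, 134, 88.8 and 110 CPM in YFP+.

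Rrp12, a factor in late maturation and export of pre-ribosomes, shared the largest rise of the small subunit class in YFP+ with Ltv1. Rrp12 was at 4.30, 3.24, 6.28 and 3.88 CPM unstimulated, 21.2, 19.4, 17.05 and 21.02 CPM in YFP- and 25.3, 28.5, 27.3 and 28.7 CPM in YFP+, a log2 difference of 2.19 ± 0.18 and 2.67 ± 0.18. Ltv1, which acts in late cytoplasmic maturation of the small subunit, rose by 2.66 ± 0.37 and 2.67 ± 0.37. Utp15, another t-UTP subunit, had the smallest rise of the class in YFP+ (1.67 ± 0.25) and was uneven among the stimulated samples. It stood at 9.68, 10.2, 8.46 and 7.43 CPM unstimulated, 23.6, 45.4, 20.6 and 32.0 CPM in YFP- and 41.8, 29.5, 20.8 and 25.1 CPM in YFP+.

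The other small subunit members were called as well. The t-UTP subunit Wdr75 rose by 2.16 ± 0.21 in YFP- and 2.33 ± 0.21 in YFP+, and Heatr1, the largest protein of that complex, by 1.86 ± 0.16 and 2.03 ± 0.16. The processome components Utp20, Nop14 and Rcl1 rose by 1.68, 1.47 and 2.09 in YFP- and by 1.84, 1.69 and 2.03 in YFP+. Bysl and Tsr1, which act late in maturation of the small subunit, rose by 2.05 and 1.91 in YFP- and by 2.08 and 1.92 in YFP+. For Bysl and Tsr1, 9.37% and 32.3% of the exon length lies opposite exons of Ccnd3 and Srr, and the labels do not state whether counting used the strand. Ccnd3 had a mean of 120 CPM and Srr 1.96 CPM, and the effect of these overlaps on the levels of Bysl and Tsr1 was not measured.

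All 13 large subunit factors rose in both comparisons, with a median log2 difference of 1.73 in YFP- and 2.11 in YFP+. Nop2, a 28S rRNA cytosine methyltransferase known as a proliferation antigen, was at 15.6, 15.4, 18.6 and 8.54 CPM unstimulated, 125, 152, 75.5 and 171 CPM in YFP- and 234, 178, 39.8 and 65.1 CPM in YFP+. Every stimulated sample exceeded every unstimulated one, but the YFP+ samples were spread widely, with m3 and m4 low. The rise was 8.93-fold in YFP- (log2 3.16 ± 0.48, adjusted p = 0.00011) and 7.29-fold in YFP+ (log2 2.87 ± 0.48, adjusted p = 0.00015), the largest of all 42 members. The annotated gene spans chr6:125131909-125144753 on GRCm38.

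Nop16, which acts in early assembly of the large subunit, was at 45.4, 50.2, 60.3 and 36.9 CPM unstimulated, 198, 194, 171 and 240 CPM in YFP- and 274, 248, 218 and 289 CPM in YFP+. It rose by 2.07 ± 0.16 and 2.43 ± 0.16 without overlap with the unstimulated samples. Ebna1bp2, the mouse homologue of a yeast factor for processing of large subunit rRNA, was at 61.0, 59.0, 66.9 and 54.0 CPM unstimulated, 174, 154, 137 and 190 CPM in YFP- and 287, 237, 214 and 289 CPM in YFP+. Its groups formed 3 separate steps, with log2 differences from unstimulated of 1.44 ± 0.14 and 2.08 ± 0.14.

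Mrto4 is a trans-acting factor that holds the place of the ribosomal stalk protein during assembly. It was at 29.6, 30.6, 40.2 and 21.4 CPM unstimulated, 97.9, 96.7, 105 and 132 CPM in YFP- and 146, 158, 143 and 178 CPM in YFP+, a log2 difference of 1.85 ± 0.17 and 2.39 ± 0.17. Nip7, a 60S maturation factor, was at 36.8, 38.2, 41.3 and 31.8 CPM unstimulated, 111, 112, 121 and 148 CPM in YFP- and 166, 151, 153 and 178 CPM in YFP+, a log2 difference of 1.73 ± 0.13 and 2.13 ± 0.13. For both genes the 3 groups did not overlap.

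Noc2l, which is both an assembly factor homologue and an inhibitor of histone acetylation, had the smallest rise of the large subunit class. It was at 31.3, 28.9, 34.3 and 28.4 CPM unstimulated, 49.8, 39.8, 42.7 and 45.9 CPM in YFP- and 48.4, 56.9, 62.2 and 86.7 CPM in YFP+. The stimulated samples were all above the unstimulated ones, by a log2 difference of 0.53 ± 0.16 (adjusted p = 0.014) and 1.02 ± 0.16 (adjusted p = 0.00010). The YFP- call of Noc2l was lost after median centring (0.40, adjusted p = 0.092) and without replicate m2 (0.56, adjusted p = 0.053), among others. Exons of Samd11 lie opposite 20.9% of the Noc2l exon length, with a mean level of 0.369 CPM.

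The PeBoW complex, made of Pes1, Bop1 and Wdr12, is needed for the 28S rRNA and for entry into the cell cycle. Its 3 subunits rose in both comparisons but with very different precision. Wdr12 rose by 1.95 ± 0.16 and 2.16 ± 0.16, while Pes1 rose by 1.61 ± 0.41 and 1.34 ± 0.41 and Bop1 by 1.89 ± 0.43 and 1.53 ± 0.43. Pes1 was at 81.8, 84.8, 82.6 and 31.8 CPM unstimulated, at 215, 216, 163 and 209 CPM in YFP-, and at 288, 229, 62.9 and 179 CPM in YFP+. Its YFP+ m3 sample therefore lay inside the unstimulated range, as did that of Bop1. Bop1 was at 48.1, 38.4, 46.7 and 15.9 CPM unstimulated, 135, 140, 97.8 and 141 CPM in YFP-, and 170, 145, 36.7 and 104 CPM in YFP+. Without the 3 samples labelled m4, neither was called in YFP+ over unstimulated (Pes1 0.95, adjusted p = 0.10; Bop1 1.13, adjusted p = 0.069), and Pes1 was not called in YFP- either (1.24, adjusted p = 0.053). Without replicate f2 or m2 the YFP+ call of Pes1 was lost too, at 1.18 (adjusted p = 0.058) and 1.30 (adjusted p = 0.051).

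Gnl3, a nucleolar GTPase of stem and dividing cells, rose by 2.15 ± 0.20 in YFP- and 2.21 ± 0.20 in YFP+. Rrs1, which helps load the 5S RNP, rose by 1.65 ± 0.19 and 2.11 ± 0.19, and Wdr74 by 1.66 ± 0.15 and 1.99 ± 0.15. Rrp1b rose by 1.5 ± 0.23 and 1.47 ± 0.23.

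Among the 6 general nucleolar factors, 5 rose in YFP- and 6 in YFP+, and this class held the most abundant member, Npm1, and the one with the smallest rise in YFP+, Npm3. Npm1 encodes nucleophosmin, an abundant chaperone of the granular nucleolus, and was at 1129, 1246, 1237 and 1050 CPM unstimulated, 1746, 1681, 1418 and 1974 CPM in YFP- and 2609, 2231, 2096 and 2540 CPM in YFP+. The 3 groups formed separate steps, and the log2 difference was 0.54 ± 0.12 (adjusted p = 0.0016) in YFP- and 1.02 ± 0.12 (adjusted p = 4.65e-06) in YFP+. Npm1 has 3 similar pseudogene transcripts, 92.4% to 95.1% identical over 51.3% to 53.8% of its transcript. Their genes together had 0.749% of the level of Npm1. Ncl encodes nucleolin, which binds the rRNA precursor, and was at 285, 285, 307 and 210 CPM unstimulated, 502, 883, 347 and 536 CPM in YFP- and 759, 566, 445 and 564 CPM in YFP+. Its m2 sample was far above the other YFP- samples, and the log2 difference was 0.996 ± 0.241 and 1.09 ± 0.24.

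Nolc1 (Nopp140), a chaperone that shuttles snoRNPs, had the largest rise of the class. It was at 34.9, 32.1, 38.4 and 17.6 CPM unstimulated, 135, 160, 93.1 and 138 CPM in YFP- and 177, 147, 74.4 and 118 CPM in YFP+, a log2 difference of 2.13 ± 0.29 and 2.06 ± 0.29. Mybbp1a, a nucleolar protein that binds transcription factors, was at 34.7, 32.8, 39.5 and 26.9 CPM unstimulated, 86.1, 89.5, 73.7 and 88.8 CPM in YFP- and 109, 125, 119 and 121 CPM in YFP+. The 3 groups of Mybbp1a did not overlap, and its rise was 1.35 ± 0.13 and 1.84 ± 0.13. Ddx21, an RNA helicase of the nucleolus, rose by 1.64 ± 0.13 and 1.99 ± 0.13.

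Npm3, a nucleophosmin relative that binds Npm1, changed least of all 42 members in YFP+ over unstimulated. It was at 54.8, 51.7, 58.6 and 42.5 CPM unstimulated, 53.6, 63.7, 63.0 and 79.1 CPM in YFP- and 63.6, 63.8, 75.4 and 75.2 CPM in YFP+. The YFP- difference of 0.32 ± 0.14 did not pass the threshold (adjusted p = 0.080), and the YFP+ difference of 0.43 ± 0.14 did (adjusted p = 0.020). That YFP+ call was lost after quantile normalization (0.31, adjusted p = 0.12), when rRNA-like features were taken out of the library totals (0.35, adjusted p = 0.061), without the 3 m2 samples (0.47, adjusted p = 0.059), without the 3 m4 samples (0.29, adjusted p = 0.11) and without the unstimulated m4 sample alone (0.33, adjusted p = 0.068). A pseudogene copy of Npm3 had 4.90% of its level, and 1 copy each of Pes1, Mrto4 and Rrs1 had 1.93%, 1.63% and 0.061%.

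**Figure D2:**
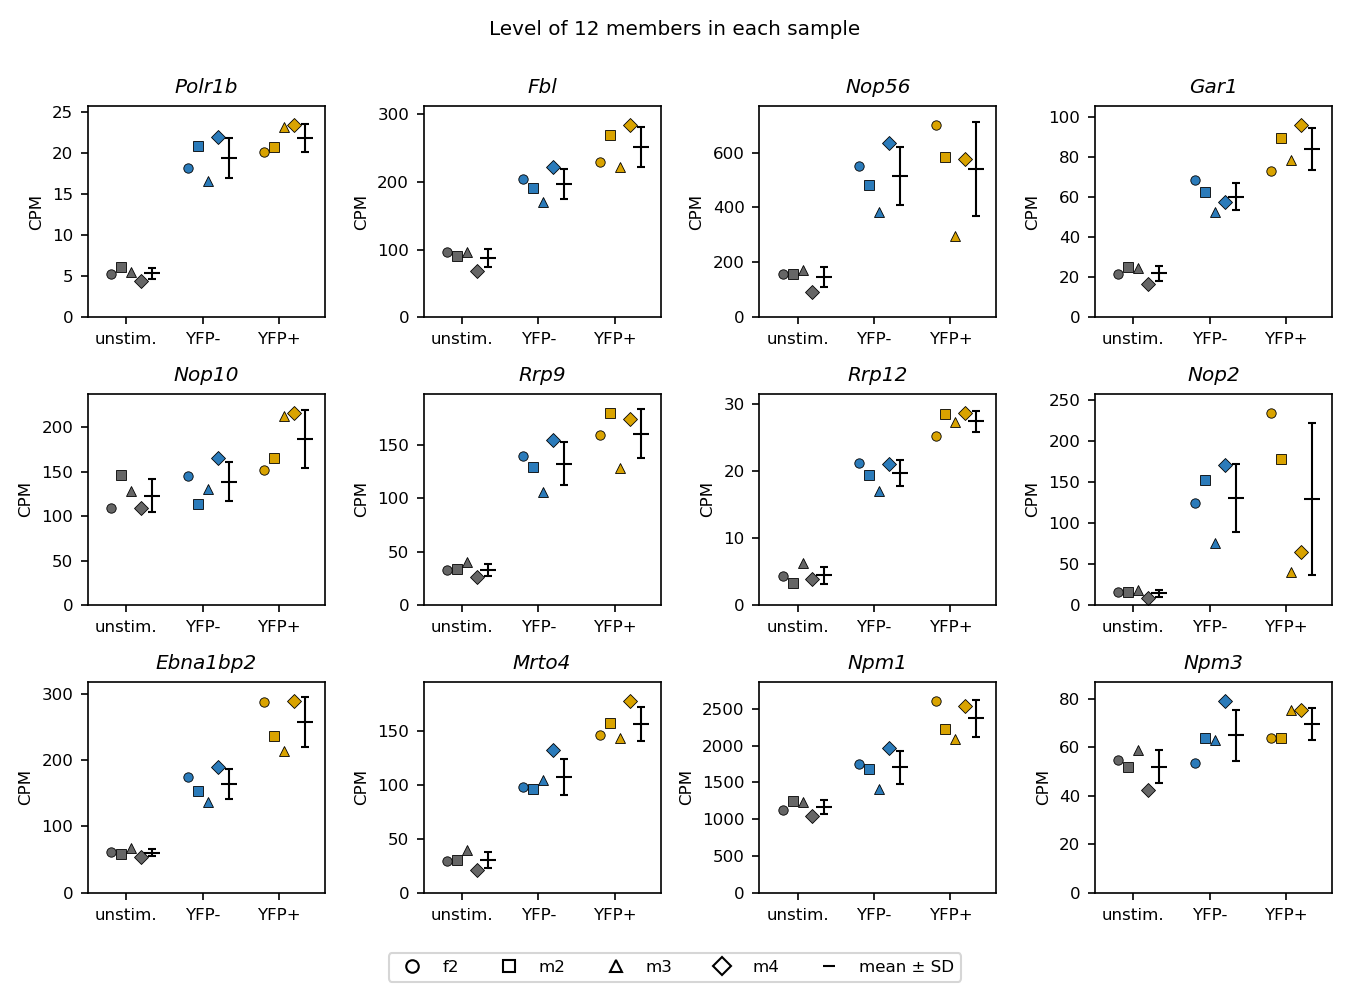
Level of 12 members in each of the 12 samples, in CPM on linear axes that start at 0; symbols give the replicate label and black marks the mean ± SD of the 4 samples of a group. Ebna1bp2 and Npm1 form 3 separate steps, the groups of Nop10 and Npm3 lie close together, and Nop2 and Nop56 have a low YFP+ m3 sample (39.8 and 297 CPM).

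The comparison of YFP+ with YFP- cells asks whether these factors differ between stimulated cells with and without the reporter. Of 42 members, 9 were called higher and none lower, against 3.28% of all genes called higher and 18.5% called lower. The 9 were Ebna1bp2, Mrto4, Nip7 and Noc2l of the large subunit class, Npm1 and Mybbp1a of the general factors, Gar1 and Nhp2 of the box H/ACA particle and the polymerase subunit Polr1c. No small subunit and no box C/D member was called in the main analysis. Among other settings, the small subunit member Rrp12 was called on the deposited scale with only the 8 samples compared (limma adjusted p = 0.038). After median centring 3 small subunit members and 1 box C/D member were called, and after trimmed-mean scaling 2 and 1. The median log2 difference of the members was 0.19, where that of all genes tested was -0.19, and 32 members had a positive and 10 a negative difference.

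The sizes were modest beside the rise over unstimulated cells. Ebna1bp2 had the largest difference, 0.65 ± 0.14 (adjusted p = 0.0044), which is 1.57-fold, and its YFP+ samples were all above its YFP- samples. Npm1 differed by 0.48 ± 0.12 (adjusted p = 0.0094), Mybbp1a by 0.49 ± 0.13 (adjusted p = 0.015) and Polr1c by 0.43 ± 0.12 (adjusted p = 0.018), again with no overlap between the groups. Mybbp1a shares 131 exon bases with Spns2 on the opposite strand, which had a mean of 7.89 CPM. Nip7 differed by 0.41 ± 0.13 (adjusted p = 0.035), Gar1 by 0.48 ± 0.15 (adjusted p = 0.037) and Mrto4 by 0.54 ± 0.17 (adjusted p = 0.040). Nhp2 (0.39 ± 0.13, adjusted p = 0.049) and Noc2l (0.48 ± 0.16, adjusted p = 0.049) lay at the threshold, and their groups overlapped.

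Rrp12, Fbl and Ddx21 were also higher in every YFP+ sample than in every YFP- sample without passing the threshold. Rrp12 differed by 0.49 ± 0.18 (adjusted p = 0.071), and was called under 7 of 21 alternatives, and Fbl by 0.35 ± 0.14 (adjusted p = 0.090). Nop10 (0.42 ± 0.16), Nop16 (0.36 ± 0.16), Rrp9 (0.28 ± 0.16), Dkc1 (0.25 ± 0.18), Wdr43 (0.21 ± 0.22), Polr1b (0.18 ± 0.14) and Npm3 (0.11 ± 0.14) had positive differences that did not pass the threshold. The differences nearest 0 among the members with values in every sample by rule were those of Polr1a at -0.02 ± 0.15, Nop56 at 0.03 ± 0.26, Utp15 at -0.03 ± 0.25, Nolc1 at -0.07 ± 0.29 and Ncl at 0.10 ± 0.24. The most negative differences of all members were those of Utp4 (-0.62 ± 0.45), Bop1 (-0.37 ± 0.43), Nop2 (-0.29 ± 0.48) and Pes1 (-0.27 ± 0.41). None of them passed the threshold, and their errors are too wide to place them on either side of 0.

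This comparison depended on the scaling more than the others. The median over all genes, -0.19 on the deposited scale, became -0.04 after trimmed-mean scaling and 0.07 after centring each sample on its median, and the share of higher genes among all calls went from 15.1% to 37.9% and 50.2%. Called members numbered 17 after trimmed-mean scaling and 21 after median centring, all of them higher. Ebna1bp2 kept its call under all 21 alternatives, Mybbp1a under 19, Npm1 under 18, Polr1c under 16, Gar1 under 14 and Nip7 and Mrto4 under 13 each, while Nhp2 kept it under 9 and Noc2l under 8. Without the 3 samples labelled m2, Ebna1bp2 was the only member still called. Without the 3 labelled f2 there were 5, and 4 without the 3 labelled m3 or without the YFP- m3 sample alone.

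**Figure D3:**
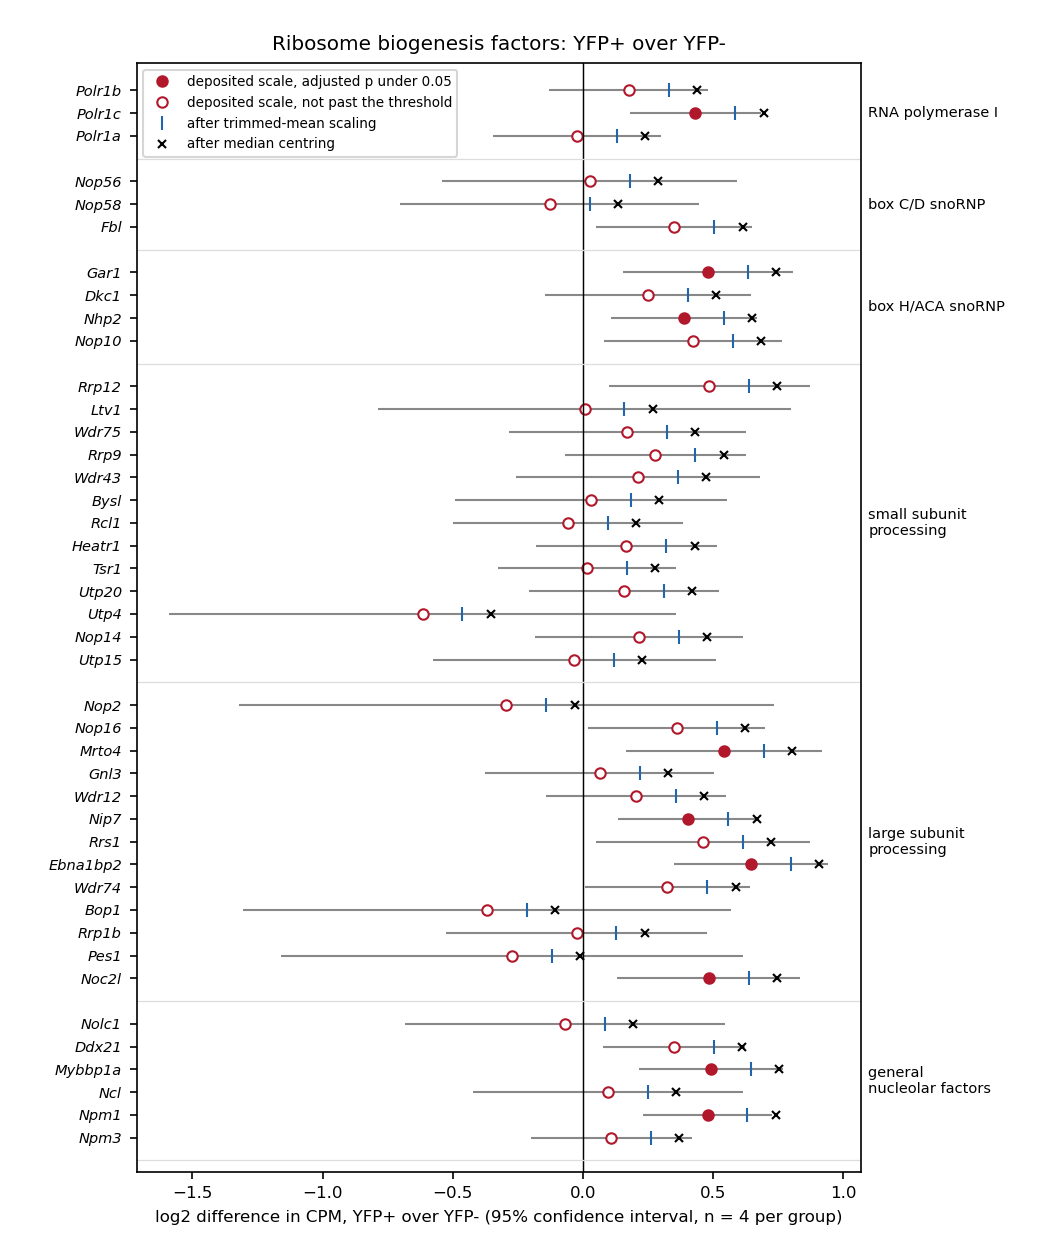
Log2 difference in CPM of YFP+ over YFP- samples for the 42 members (red circles, filled where the adjusted p is under 0.05; bars are 95% confidence intervals; n = 4 per group), with the same difference after trimmed-mean scaling (blue ticks) and after median centring (crosses). The 9 filled circles lie between 0.39 and 0.65, and both other scalings move all members to the right.

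The members did not vary alike between samples of 1 group. Nop2, Utp4, Bop1, Pes1 and Ltv1 had the widest spread within groups, with a residual SD of 0.81, 0.76, 0.73, 0.70 and 0.61 on the log2 scale, where the median of the members was 0.24 and that of all genes tested 0.30. Of all genes tested, 96.6%, 95.7%, 94.8%, 93.4% and 88.9% had a narrower spread than these, in the same order. Spreads this wide were therefore also met among other genes. This set of 5 was singled out after its values were seen. In each of the 5, the YFP+ m3 sample was the lowest of its group, between 1.18 and 1.42 below its mean on the log2 scale, and the unstimulated m4 sample was the lowest of its group as well. Utp4, a t-UTP subunit, illustrates this with 24.9, 20.47, 18.1 and 8.79 CPM unstimulated, 91.9, 91.6, 71.6 and 99.7 CPM in YFP- and 112, 105, 21.9 and 42.3 CPM in YFP+. Ltv1 was at 20.48, 20.0, 22.6 and 8.51 CPM unstimulated, 118, 109, 85.2 and 116 CPM in YFP- and 158, 151, 47.1 and 116 CPM in YFP+.

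Of these 5, Nop2, Utp4, Pes1 and Ltv1 hold the CACGTG match printed above, and Bop1 had no window in the promoter table. The other members with a match were not all spread widely: Wdr43 had a residual SD of 0.34, Utp20 of 0.23, Tsr1 of 0.21 and Mybbp1a of 0.16. The narrowest spread was that of Polr1c, at 0.14. Whether the motif is linked to the spread was not tested.

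The same libraries stood low for most other members. The unstimulated m4 library was the lowest of its group for 38 of 42 members, which is 90.5%, against 39.8% of all genes tested. The YFP- m3 library was the lowest for 34 members (81.0%, against 55.0% of genes) and the YFP+ m3 library for 28 (66.7%, against 40.8%). The median member lay 0.36, 0.26 and 0.27 below its group mean in these libraries, and the median gene 0.06, 0.18 and 0.10 below. All 3 libraries also had the highest rRNA-like share of their group, and the part of that share in these deviations was not tested. Without the unstimulated m4 sample, 40 members were called in YFP- and 41 in YFP+ over unstimulated, with medians of 1.60 and 1.82.

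**Figure D4:**
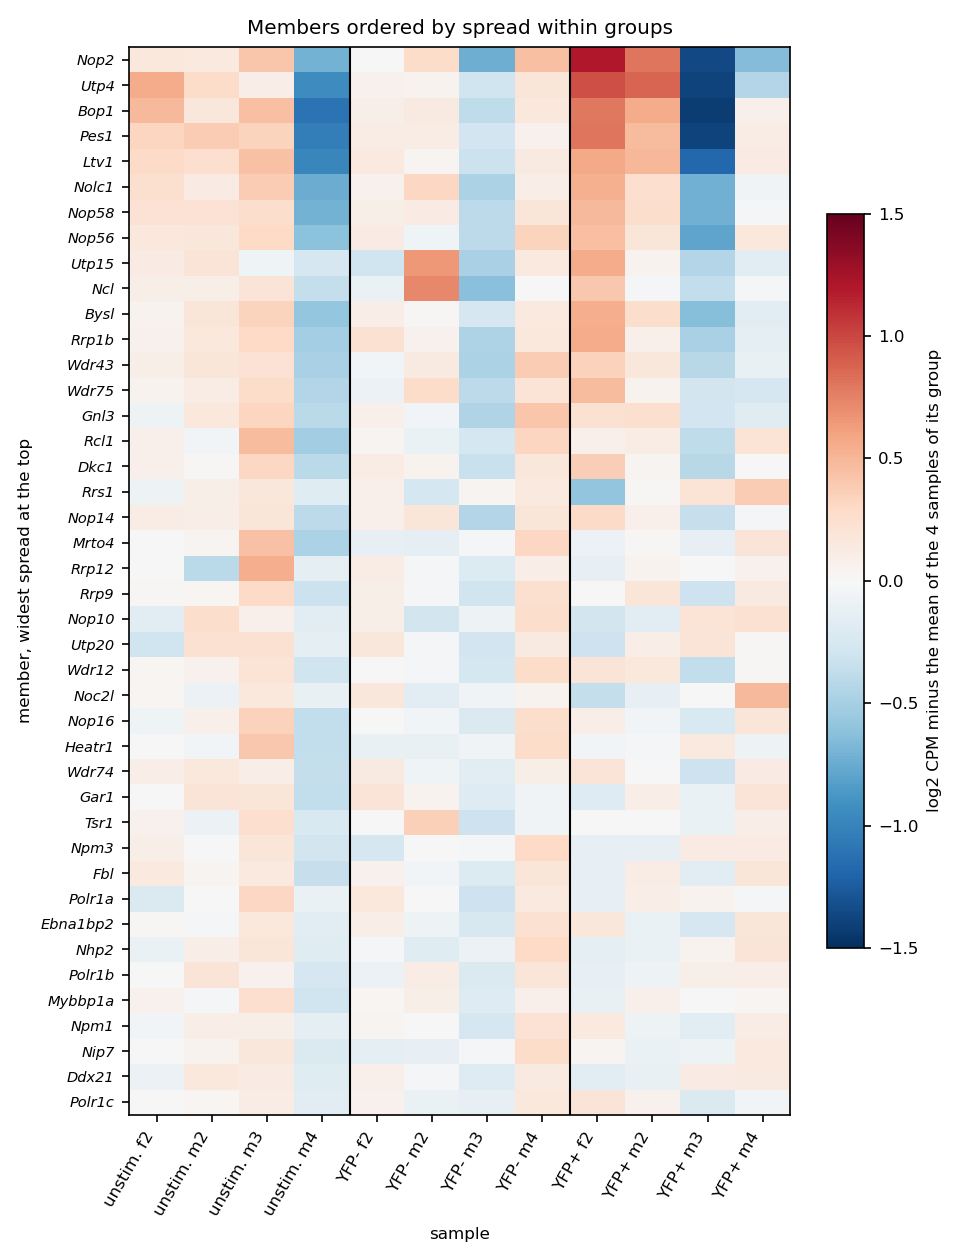
Deviation of each member from the mean of the 4 samples of its group, in log2 CPM (blue below, red above), with members ordered by their spread within groups and samples in columns. YFP+ m3 is dark blue in the top 5 members (1.18 to 1.42 below the mean), and the columns of unstimulated m4 and YFP- m3 are blue for most members.

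Differences between classes were in size rather than direction. In YFP- the class medians ran from 1.17 for the general nucleolar factors and 1.25 for RNA polymerase I to 1.39 for box H/ACA, 1.73 for the large subunit, 1.80 for box C/D and 2.03 for the small subunit. In YFP+ they ran from 1.47 for the general factors and 1.60 for RNA polymerase I to 1.67 for box C/D, 1.72 for box H/ACA, 2.03 for the small subunit and 2.11 for the large subunit. The classes overlap widely in their members' values, and no test of a difference between classes was made.

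**Figure D5:**
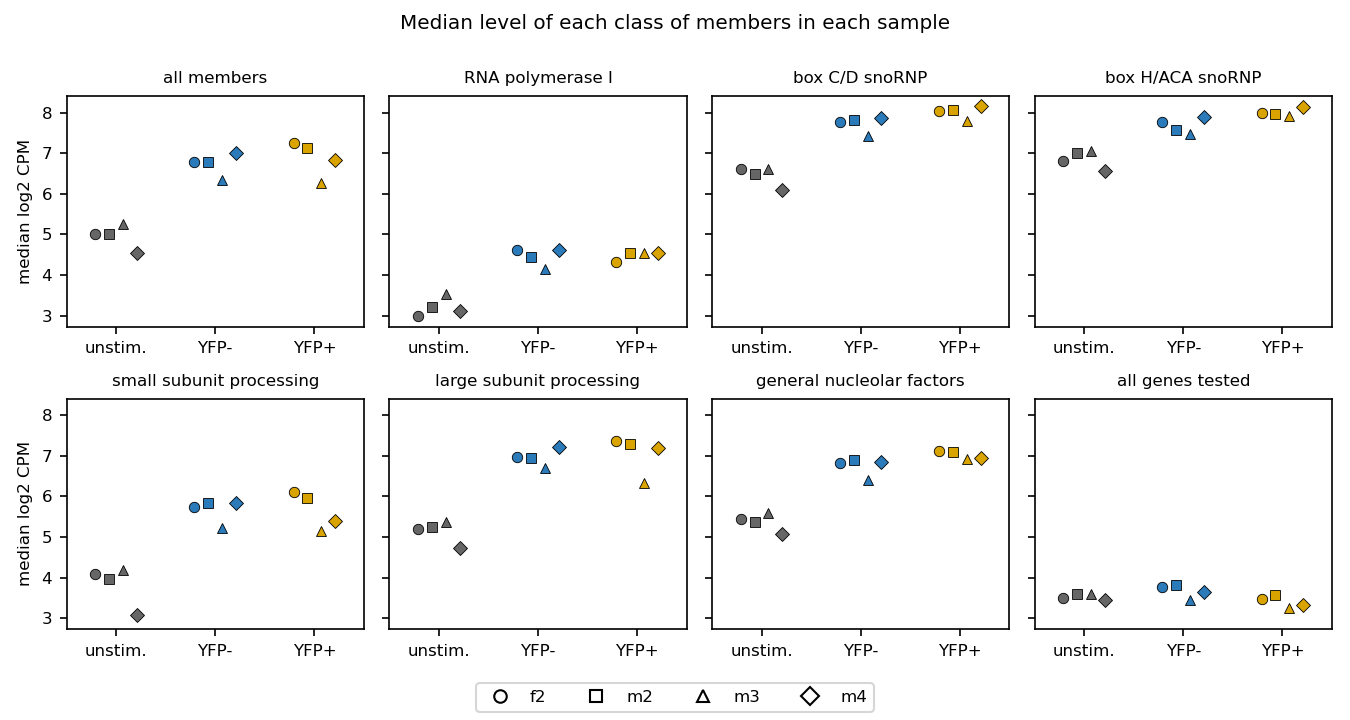
Median log2 CPM of each class of members in each of the 12 samples, with all genes tested in the last panel (symbols give the replicate label; unstimulated grey, YFP- blue, YFP+ yellow). In every class the 4 unstimulated samples lie below all stimulated samples, while the medians of all genes tested stay between 3.25 and 3.82.

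Levels can be compared between genes only per length, and the order then depends on the length used. Per kilobase of annotated transcript, Npm1 was the most abundant member, with group means of 714 (unstimulated), 1044 (YFP-) and 1451 (YFP+) CPM per kilobase, and it also ranked 1 per kilobase of coding sequence or of all exons. Nhp2 followed at 137 CPM per kilobase of transcript without stimulation and 449 in YFP+, and Nop10 was at 111 and 168. Per kilobase of coding sequence, which is 192 of 1109 transcript bases in Nop10 and 459 of 1042 in Nhp2, the unstimulated order was turned, with Nop10 at 641 and Nhp2 at 311. Within the same particle, Dkc1 was at 39.6 and Gar1 at 17.3 CPM per kilobase of transcript without stimulation. The lowest unstimulated levels on that scale were those of Utp20 (0.783), Polr1a (1.008) and Rrp12 (1.02).

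Other genes of the pathway moved in the same direction. Of 133 further tested factors (other polymerase I, small and large subunit factors, the rRNA-processing exosome and snoRNP assembly factors), 120 were called higher and 3 lower in YFP-, and 116 higher and 2 lower in YFP+ over unstimulated. Among all genes tested, 30.2% were called higher and 20.9% lower in YFP-, and 27.5% higher and 33.3% lower in YFP+. The median difference of the 133 factors was 1.124 and 1.137. Like the members, these lists were chosen with earlier results of these data known. In YFP+ over YFP- 5 (3.76%) were called higher, close to the 3.28% of all genes, and 3 (2.26%) lower, where 18.5% of all genes were; the median was 0.01, against -0.19 over all genes.

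By group, 13 of 17 other polymerase I genes were called higher in YFP+ over unstimulated, where 27.5% of all genes tested were. They included Taf1a, a subunit of the promoter selectivity factor of polymerase I, at 2.08 and the subunit gene Polr1e at 1.86. Small subunit factors rose in 42 of 46 cases, with Pno1 at 3.01, from a mean of 17.7 CPM unstimulated to 143 CPM, and Tsr2 at 2.33. Large subunit factors rose in 43 of 48 cases, with Rrp15 at 2.64 and Ppan at 2.59. Of 12 exosome genes 10 rose, with Mphosph6 at 1.85 and Exosc1 at 1.75, while Exosc8, a ring subunit, fell by 0.73 on the log2 scale, from a mean of 133 to 80.9 CPM. Among 10 snoRNP assembly factors 8 rose, with Znhit6 at 1.96 and Rpap3 at 1.69, and Pih1d1, a subunit of the R2TP chaperone complex, fell by 0.97. The genes called higher in YFP+ over YFP- were Mphosph6 (0.83, adjusted p = 0.00056), Exosc3 (0.39, adjusted p = 0.015), Snu13 (0.39, adjusted p = 0.027), Exosc7 (0.42, adjusted p = 0.042) and Polr2k (0.40, adjusted p = 0.048). Those called lower were Pih1d1 (-0.45, adjusted p = 0.020), Nop53 (-0.54, adjusted p = 0.022) and Polr2e (-0.35, adjusted p = 0.023).

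Box C/D and H/ACA particles need their guide RNAs, most of which are cut from introns of host genes. The annotation (GENCODE M21, GRCm38) places 21 snoRNAs on the same strand inside 7 members, namely Dkc1, Gnl3, Ncl, Nop56, Nop58, Tsr1 and Wdr43. All 7 hosts rose in both comparisons, but the snoRNAs themselves had at most 0.347 CPM in any sample, so their levels are not described. Of 10 tested non-coding snoRNA host genes, 6 were called higher in YFP- and 6 in YFP+ over unstimulated. Among all genes tested, 30.2% and 27.5% were called higher. Snhg15 rose by 2.85 and Snhg17 by 1.49 in YFP+, whereas Gas5, the most abundant, rose by 0.42 and Snhg8 was at 0.01 (adjusted p = 0.98).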

How the data were processed

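RNA-seq values of 12 samples came as 1 table of moderated log2 CPM per gene, made by the authors; per the submitters' processing notes, bcl2fastq, STAR 2.7.9a, Subread featureCounts 2.0.3 and GRCm38 were used, and how counting treated strand is not given in the sources used here. Per the labels, libraries were made from 10 ng of total RNA with a SMARTer Ultra Low kit. The table held 55774 lines, of which 287 were repeats and were dropped. The deposited log2 values equal log2 CPM with a prior of 0.5 reads scaled to each library total (largest difference 5.15e-14), so linear CPM and whole reads were recovered (100% of values within 0.01 reads). Because the deposited values are on a log2 scale, each gene was tested with limma 3.58.1 (R 4.3.3, moderated, intensity trend) over all 12 samples and 3 groups, for 12364 genes with log2 CPM above 0 in at least 4 samples; p-values were adjusted by Benjamini-Hochberg over all of them and called at 0.05. Differences are on the moderated log2 scale, which understates changes of low genes. The fit was tested on simulated data.

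The members, their classes, the wider pathway lists and the markers were chosen with earlier results of these data known. All members could be named. Values in every sample are given, per class, for the 2 most abundant members, those with the largest and smallest difference of YFP+ over unstimulated, and up to 8 called in YFP+ over YFP-; Pes1, Bop1, Utp4 and Ltv1 were added after their values were seen. From each wider list, the 2 largest called rises and the largest called fall with a mean log2 CPM of at least 2 were named; genes called in YFP+ over YFP-, Gas5 and Snhg8 were added after their values were seen. Of the table's identifiers, 99.53% were in GENCODE M21. Alternatives covered scaling, filters, the pseudocount, the replicate block, limma-voom on the recovered reads (10 members called in YFP+ over YFP-), stricter thresholds and left-out samples.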

Additional observations from a re-analysis of the deposited data

Results flagged for a closer look

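For each member and group, the gap between the highest or lowest of the 4 samples and its nearest neighbour was divided by the range of the group. Above Dixon’s critical value for 4 samples a sample stands far from the others, and chance gives this in about 1 in 20 sets. It was seen in 10 of 126 sets, where 6.3 would be met by chance if the sets were independent. They are not, because all members were measured in the same libraries, so 6.3 cannot serve as a test of this count. The share of such sets over all genes tested was not counted. In the unstimulated group, replicate m4 was the low sample for Nop56 (0.85), Nop58 (0.947), Nop14 (0.852), Ltv1 (0.873), Pes1 (0.962) and Wdr74 (0.87). In YFP-, replicate m3 was the low sample for Nop58 (0.833), Pes1 (0.886) and Bop1 (0.878), and replicate m4 was the high sample for Heatr1 (0.863). Pes1 and Nop58 were each met in both groups. Replicate m4 was also the lowest unstimulated sample for 39.8% of all genes tested, and replicate m3 the lowest YFP- sample for 55.0%. The part of such library-wide shifts in these sets was not tested.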

How the results depend on the processing

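The rise over unstimulated cells stayed positive at the median under all 21 alternatives (1.53 to 1.85 in YFP-, 1.74 to 2.07 in YFP+): 37 to 40 members were called in YFP- and 38 to 42 in YFP+, the lowest counts coming without a filter, and no member was called lower in any of the 3 comparisons. For 38 members in YFP- and 37 in YFP+, every alternative kept both direction and call; Nop10 in YFP- turned to -0.0714 after quantile normalization and to -0.0137 with the rRNA-like features and Lars2, Mir6236 and Gm23935 left out. These 3 and the single-sample omissions, limma-voom and the scaled block were chosen after seeing the data.

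YFP+ over YFP- was less stable. Members called, all higher, numbered 2 without a filter, 21 after median centring, 17 after trimmed-mean scaling, 16 with that scaling and the block, 4 without the intensity trend, 2 at an adjusted p under 0.01, and 1 to 8 with replicates or single libraries left out. The median difference became 0.35 after quantile normalization, 0.45 after median centring and 0.34 after trimmed-mean scaling, with 0.10 to 0.32 when libraries were left out. Wider-list calls, 8 in the main analysis, were 4 without a filter, 25, 40 and 23 after quantile normalization, centring and trimmed-mean scaling, 26 with the latter and the block, 14 with rRNA-like features and 3 more left out, 5 without the trend, 1 with only 8 samples, 1 at 0.01, and 1 to 12 with libraries left out. The cause was not tested.

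Signs near 0 turned. After quantile normalization, centring, trimmed-mean scaling and that scaling with the block, Polr1a was at 0.20, 0.24, 0.13 and 0.13, Utp15 at 0.15, 0.23, 0.12 and 0.12, and Nolc1 at 0.0053, 0.19, 0.0834 and 0.0834; Nop56 was at -0.0094 with rRNA-like features left out. Left-out libraries gave -0.14 to 0.074 for Polr1a, -0.10 to 0.29 for Nop56, -0.32 to 0.16 for Utp15, -0.69 to 0.16 for Nop2, -0.11 to 0.34 for Ncl and -0.23 to 0.17 for Nolc1. Of the 18 members outside the rule for values in every sample, 11 changed sign in this comparison under some alternative.

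With a replicate block, 40, 42 and 7 members were called in YFP-, YFP+ and YFP+ over YFP-; in the last, Mrto4 (adjusted p = 0.051) and Noc2l (adjusted p = 0.050) were no longer called. Whether same-numbered samples are paired is not stated, and not every pair correlated above 0.1: deviations of same-label samples correlated by 0.054 (f2), 0.35 (m2), 0.37 (m3) and 0.17 (m4) in YFP+ and YFP-, where 3 of 4 correlated best with their own label, and by 0.03 and 0.14 on average between unstimulated and YFP- or YFP+ samples. Depth did not limit the members, each with at least 123 reads in every sample.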
